A study of Mus musculus with 10 samples.

Results

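The comparison described here sets mouse embryonic stem cells transfected with an siRNA against Sox17 (siSox17) beside cells transfected with a non-targeting siRNA (siNonTarget), across all genes. Both groups are NG4 cells, an embryonic stem cell line, reverse transfected with siRNA at plating, differentiated with retinoic acid and collected 48 h after transfection. The labels give no genotype beyond the line. Each group has 2 Affymetrix arrays, so the comparison rests on 4 of the 10 arrays in the series; siSocs3, siFbxw7 and siRnf31 make up the others, with 2 arrays each, and share the cell line, the retinoic acid and the time. All genes with a probe set of their own were members: 18194 genes, the whole of what was tested, with a gene represented by its brightest probe set. The labels do not say whether the 2 arrays of a group came from separate cultures, so errors and p-values cover only the spread between these arrays. The cells are a mixed, differentiating population, and in bulk RNA a smaller share of cells of 1 type cannot be told apart from less RNA per cell.

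SOX17 is a transcription factor of the SOX family, which bind DNA through an HMG box, and it is a central regulator of definitive endoderm and of the primitive endoderm that forms the yolk sac. In embryonic stem cells, forced SOX17 favours extraembryonic endoderm. Retinoic acid acts through nuclear receptor pairs of RAR and RXR proteins, turns on HOX genes and genes that clear retinoic acid itself, and moves embryonic stem cells out of the pluripotent state.

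Levels below are log2 of the intensity made by RMA, a method that corrects background, makes array distributions alike and summarises the probes of a set. Differences are siSox17 minus siNonTarget on that log2 scale, with the standard error (SE) of a linear model (limma) over all 5 groups. The median gene level was 7.0, and the median probe set on an array had a level of about 5.54, near which background takes up much of the signal. Adjusted p-values are Benjamini-Hochberg values over all 18194 genes, with a threshold of 0.05. A permutation of 2 against 2 arrays cannot give a two-sided p below 0.333, so no exact test of a single gene is possible at that threshold.

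Some arrays resembled arrays of another group more than their own replicate. The siSox17 replicate 2 array correlated best with siFbxw7 replicate 2 (r = 0.9978 across genes, against 0.9967 with siSox17 replicate 1). The siNonTarget replicate 1 array correlated best with siFbxw7 replicate 1 (0.9974, against 0.9936 with siNonTarget replicate 2). At least 2-fold differences between replicates numbered 40 genes in siSox17 and 220 in siNonTarget. The 3′ over 5′ log2 difference of the actin control probe sets, a measure of RNA integrity and labelling, was 0.26 and 0.25 in siSox17 and 0.50 and 0.25 in siNonTarget. It was 0.60 in siFbxw7 replicate 1, the array closest to siNonTarget replicate 1. A fit without these arrays is given in the closing section, but the part of the actin difference in the results was not tested. Where the text gives an estimate without siNonTarget replicate 1, that array is left out of the fit. The labels give no day or batch for the replicates, and whether labels were exchanged was not tested, so the groups are taken as labelled.

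The targeted transcript did not separate the groups. Sox17, on chromosome 1, had levels of 6.32 and 7.50 on the siSox17 arrays, against 6.37 and 7.39 on the siNonTarget arrays. The replicates of each group spanned the same range, so the groups overlapped, and the difference was 0.03 ± 0.53 (limma adjusted p = 0.988). Its other probe set read 6.38 and 6.83 in siSox17, against 6.41 and 6.80 in siNonTarget, with a difference of −0.00 ± 0.38. On the other arrays the level was 7.46 and 7.55 in siSocs3, 7.28 and 8.87 in siFbxw7, and 7.47 and 7.60 in siRnf31. Without siSox17 replicate 1 or 2 the difference was 0.62 or −0.56, and without siNonTarget replicate 1 or 2 it was −0.48 or 0.54; none of these passed the test. The arrays are therefore called siSox17 by their label, and every direction below rests on that label.

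Of the 18194 genes tested, 1 (0.0055%) passed the threshold. Doc2a fell in the arrays labelled siSox17. The gene, on chromosome 7, encodes a C2-domain calcium sensor that promotes neurotransmitter release at synapses. Its level was 5.09 and 4.95 in siSox17, against 6.22 and 6.11 in siNonTarget. The siSox17 arrays were the lowest of all 10 and the siNonTarget arrays the highest, with 5.47 and 5.62 in siSocs3, 5.82 and 5.69 in siFbxw7 and 5.59 and 5.68 in siRnf31. The difference was −1.15 ± 0.11 (limma adjusted p = 0.0405), a ratio of 0.451, and it stayed between −1.22 and −1.08 when any 1 array was left out. The call itself was lost without any 1 of the 4 arrays compared, without either siSocs3 array and without either siRnf31 array, with the adjusted p between 0.014 and 0.41 over all arrays left out in turn. Doc2a is dim: 35.8% of genes had a lower mean level, and its 1 probe set reads near the array median. It was also lower in siSox17 than in siSocs3 (−0.53 ± 0.11, limma adjusted p = 0.041), while the differences from siFbxw7 (adjusted p = 0.765) and siRnf31 (adjusted p = 0.468) did not pass.

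**Figure D1:**
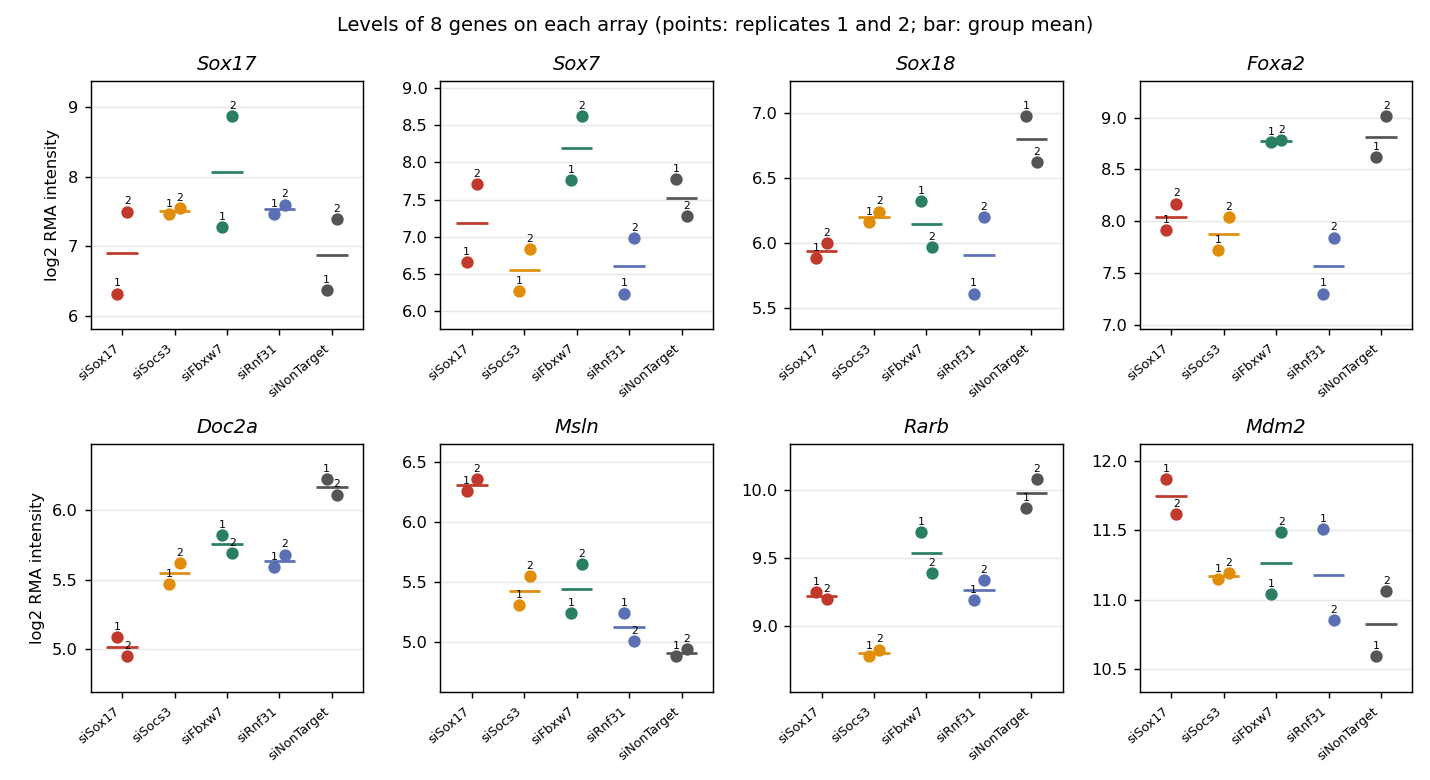
Log2 RMA intensity (vertical axes, each panel with its own range) of 8 genes on the 10 arrays; points are replicates 1 and 2 of the siRNA group on the horizontal axis and bars are group means. Sox17 covers 6.32 to 7.50 in siSox17 and 6.37 to 7.39 in siNonTarget, while Doc2a is lowest on both siSox17 arrays and Msln is highest on them.

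Beyond Doc2a, the genes with the smallest p did not pass the threshold, and their adjusted p ran up to 0.131. Msln, which encodes the surface glycoprotein mesothelin, came closest. Its level was 6.26 and 6.36 in siSox17, against 4.88 and 4.94 in siNonTarget, and both siSox17 arrays were above all 8 others. The difference was 1.40 ± 0.15 (limma adjusted p = 0.071). Against siSocs3, Msln was higher in siSox17 by 0.88, and that difference passed (adjusted p = 0.022). Matn1, a cartilage matrix protein, read 5.95 and 6.01 in siSox17, against 5.14 and 4.93 in siNonTarget. The estimate was 0.94 ± 0.13 (limma adjusted p = 0.112), and the difference from siSocs3 passed (0.89, adjusted p = 0.0102). Rab17, a small GTPase of epithelial membrane traffic, read 6.21 and 5.93 in siSox17, against 5.14 and 4.88 in siNonTarget, an estimate of 1.06 ± 0.15. Its difference from siSocs3 passed as well (0.71, adjusted p = 0.0464). The differences of Msln, Matn1 and Rab17 from siFbxw7 and from siRnf31 did not pass (limma adjusted p between 0.27 and 0.855). All siNonTarget levels of these genes were below the median probe set. The other genes with the smallest p on the higher side were the peptide transporter Slc15a1, the phospholipases Pla1a and Plcd3, the phosphatase gene Ptprv and Dglucy, with estimates between 0.87 and 1.48. Slc15a1 read below the median probe set on every array.

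On the lower side, Myzap, a cell junction protein, read 3.53 and 3.64 in siSox17, against 4.35 and 4.37 in siNonTarget. Its estimate was −0.77 ± 0.09 (limma adjusted p = 0.0985), below the median probe set on every array. Rbp4, the plasma carrier of retinol and a product of yolk sac endoderm, read 6.65 and 6.96 in siSox17, against 7.91 and 8.03 in siNonTarget, an estimate of −1.17 ± 0.15. Pygl, liver glycogen phosphorylase, read 5.84 and 5.64 in siSox17, against 7.07 and 6.98 in siNonTarget, an estimate of −1.29 ± 0.18. The groups did not overlap for any of these genes, which were chosen by their p in the same contrast. Over all genes, 48.2% did not overlap, in either direction. The remaining genes were Foxa3, described below, the actin-binding Rflnb and Pdlim4, and Rassf2, a RAS effector, with estimates between −1.34 and −0.83. Rassf2 read below the median probe set on every array, and 1 of its other probe sets gave 0.16.

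Ranked by size, the 12 largest positive and 12 largest negative estimates had adjusted p between 0.131 and 0.222, and none passed. Cryab, a small heat shock chaperone, had the largest positive estimate. It read 11.17 and 10.54 in siSox17, against 7.29 and 9.19 in siNonTarget. The siNonTarget replicates lay more than 1 log2 unit apart; the estimate was 2.62 ± 0.70, and 1.67 without siNonTarget replicate 1. Npr3, the clearance receptor for natriuretic peptides, read 5.87 and 6.26 in siSox17, against 4.03 and 3.64 in siNonTarget, an estimate of 2.23 ± 0.52. Both siNonTarget levels of Npr3 were below the median probe set. Cemip, a hyaluronan-degrading protein, read 8.85 and 9.08 in siSox17, against 7.12 and 6.63 in siNonTarget. The replicates were closer here, and the estimate was 2.09 ± 0.38, although its other probe sets gave 0.24 and −0.17. Tgm1, a transglutaminase of epithelial barriers, read 9.25 and 9.26 in siSox17, against 7.10 and 7.50 in siNonTarget, an estimate of 1.96 ± 0.36. Lgals3, which encodes galectin-3, read 9.22 and 9.42 in siSox17, against 7.21 and 7.61 in siNonTarget, an estimate of 1.91 ± 0.41. The others were the ectonucleotidase Nt5e (2.13), the pantetheinase Vnn1 (2.12), the chemokine Cxcl10 (1.97), endothelin-1, encoded by Edn1 (1.96), the cystatin-like Cstdc1 (1.87), Synpo2l (1.85) and the drug efflux pump Abcb1b (1.83). For Nt5e, Vnn1, Cxcl10 and Edn1 the siNonTarget replicates lay more than 1 log2 unit apart. Without siNonTarget replicate 1 the estimates were 1.18 for Vnn1, 1.05 for Cxcl10 and 1.15 for Edn1, and without siNonTarget replicate 2 that of Nt5e was 1.29.

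The largest negative estimate was that of Aldh1a7, an aldehyde dehydrogenase, which read 5.6 and 4.93 in siSox17, against 7.41 and 8.11 in siNonTarget (−2.49 ± 0.72). Fbxo32, an F-box protein known from muscle wasting, read 5.70 and 5.49 in siSox17, against 8.09 and 7.35 in siNonTarget, an estimate of −2.12 ± 0.48. Ret, the receptor tyrosine kinase for GDNF family ligands, read 5.73 and 6.13 in siSox17, against 8.20 and 7.87 in siNonTarget. The replicates of each group were close to each other, and the estimate was −2.11 ± 0.40 (limma adjusted p = 0.131). Ednrb, the endothelin receptor of neural crest cells, read 6.44 and 6.88 in siSox17, against 8.77 and 8.63 in siNonTarget, an estimate of −2.04 ± 0.49. Ret and Ednrb are both needed for the enteric nervous system. The list of neural crest and enteric neuron genes, described below, went both ways. Arg1, an arginase, read 8.24 and 8.17 in siSox17, against 10.35 and 10.17 in siNonTarget (−2.05 ± 0.63). The others were the nuclear receptor Nr2f1 (−2.15), the retinoic acid binding protein Crabp1 (−2.06), Spsb4 (−1.94), the homeobox gene Meox1 (−1.89, and −1.26 without siNonTarget replicate 1), the selenium carrier Selenop (−1.89), the zinc finger gene Zbtb16 (−1.86) and Cracd (−1.84). For Cracd the 4 other probe sets gave 0.12 to 0.22.

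**Figure D2:**
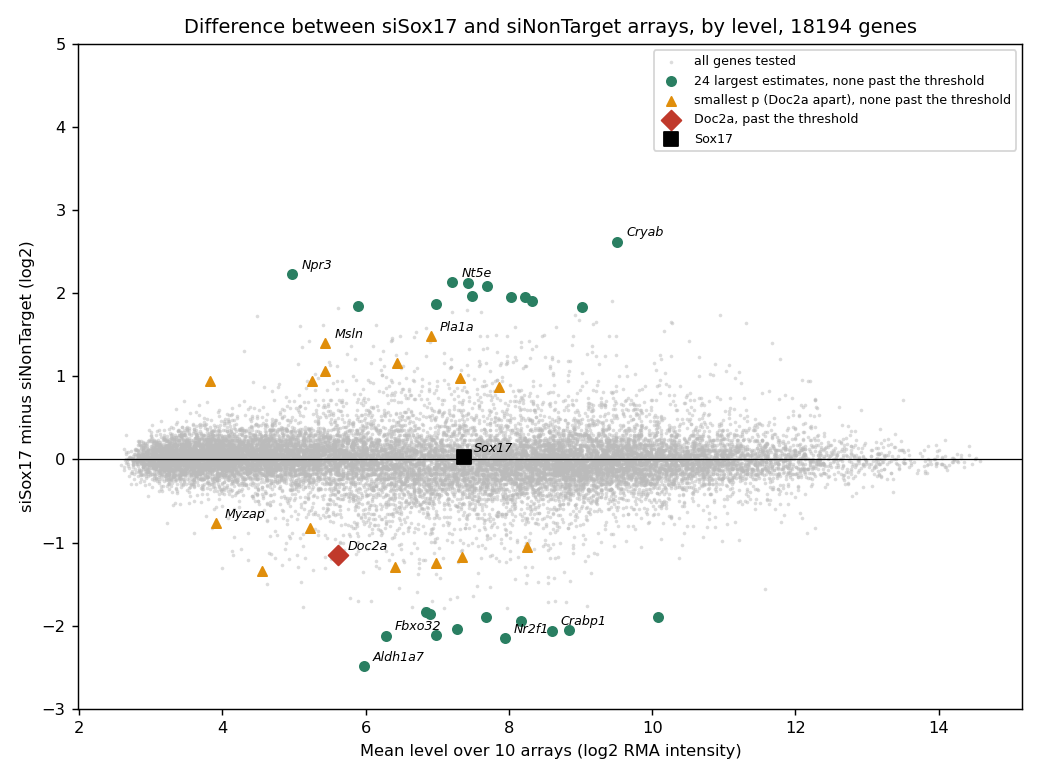
Each point is 1 of 18194 genes; the horizontal axis is the mean log2 RMA intensity over 10 arrays and the vertical axis is the log2 difference between siSox17 and siNonTarget. The largest estimates lie at 2.62 (Cryab) and −2.49 (Aldh1a7), Sox17 lies at 0.03, and only Doc2a, at −1.15, passed the threshold.

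The arrays of the other siRNAs did not sit together on these 24 genes. The siFbxw7 replicate 2 array lay nearer the siSox17 mean than the siNonTarget mean for all 24, while siFbxw7 replicate 1 did so for 1. The siRnf31 arrays did so for 16 (replicate 1) and 3 (replicate 2), and the siSocs3 arrays for 20 and 21. Ret shows the split: it read 5.73 and 6.13 in siSox17, 7.55 and 6.11 in siFbxw7, 7.07 and 7.74 in siRnf31, and 8.20 and 7.87 in siNonTarget. The 24 genes were chosen on the contrast of siSox17 with siNonTarget, so this is a description; over all 18194 genes the same count ran from 39.4% of genes for siFbxw7 replicate 1 to 63.4% for siFbxw7 replicate 2. The error of the model pools the spread of all 5 groups. A model of the 2 groups alone called 254 genes (1.4%), 96 higher and 158 lower in siSox17, among them 15 of these 24 genes. A model without the siFbxw7 and siRnf31 arrays called 584 (3.21%), of which 246 were shared with the first.

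**Figure D3:**
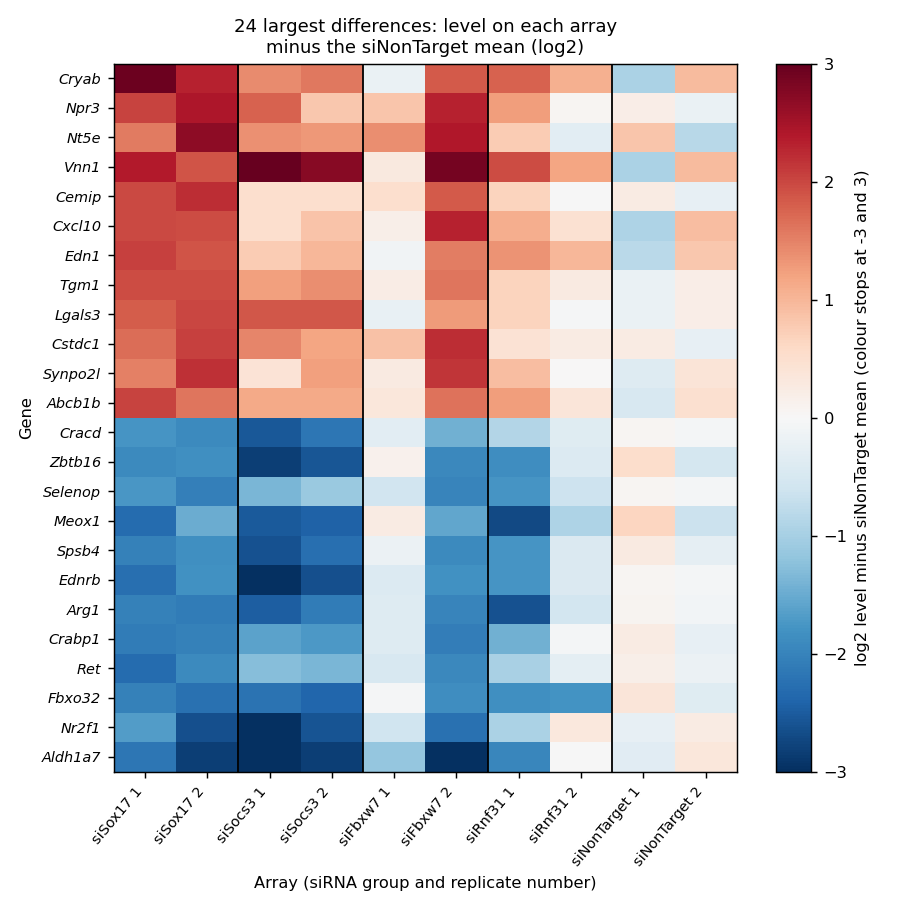
Rows are the 24 genes with the largest estimates, columns the 10 arrays by siRNA group and replicate, and colour the log2 level minus the siNonTarget mean, stopping at −3 and 3. The siFbxw7 replicate 2 column resembles siSox17 for all 24 genes, the siFbxw7 replicate 1 column for 1 of them.

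Gene lists are described by how many members had both siSox17 arrays above, or both below, both siNonTarget arrays. Over all genes, 23.3% lay above and 24.9% below without overlap, the median difference was −0.00, and 152 genes in each direction (0.835% each) were also at least 2-fold apart. Apart from Doc2a, which is in no list, no gene passed, so the adjusted count was 0 in each of the 23 lists by limma; at an unadjusted p under 0.05 the share of all genes was 7.93% higher and 9.39% lower. The model of the 2 groups alone called 254 of all 18194 genes (1.4%), 96 higher and 158 lower. In that model 6 of 30 retinoic acid genes passed, all lower, and 4 of 18 naive pluripotency genes passed, all higher. The other lists had 0 to 4. The estimates below are values, not calls. The lists were chosen with earlier results of these data known, so their shares describe these arrays and are no independent support.

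Among other SOX genes, 0 of 18 lay above and 9 (50%) below both controls, with a median of −0.37. Mean levels of the list were 6.86 and 7.05 in siSox17, against 7.49 and 7.26 in siNonTarget. They were about as low in siSocs3 (6.83 and 6.91), with 7.37 and 7.12 in siFbxw7 and 6.94 and 7.17 in siRnf31. Sox18, which with Sox7 and Sox17 forms the SOX group F of endoderm and blood vessels, read 5.88 and 6.0 in siSox17, against 6.97 and 6.62 in siNonTarget (−0.85 ± 0.21, limma adjusted p = 0.139). Sox7 read 6.66 and 7.71 in siSox17, against 7.77 and 7.28 in siNonTarget, so the groups overlapped. Sox11, a neuronal and progenitor factor of group C, read 8.74 and 8.68 in siSox17, against 9.70 and 10.02 in siNonTarget (−1.16 ± 0.29). All 3 measured group C genes (Sox4, Sox11 and Sox12) lay below both controls, with estimates of −1.16 to −0.36. Sox2, the core pluripotency factor, read 10.97 and 11.27 in siSox17, against 11.57 and 11.43 in siNonTarget, an estimate of −0.38. The median of the list ran from −0.43 to −0.24 over the 4 fits that each leave out 1 array of the groups compared.

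Genes of the endoderm programme in which SOX17 works lay on both sides of the controls. Of 27 extraembryonic endoderm genes 6 lay above and 5 below both controls, with a median of 0.01. Gata6, a driver of primitive endoderm, read 8.92 and 9.42 in siSox17, against 8.81 and 8.95 in siNonTarget, and Gata4 read 5.25 and 5.79 in siSox17, against 5.93 and 5.48 in siNonTarget; both overlapped. The laminin gene Lama1 and the collagen gene Col4a1, which build the basement membrane of parietal endoderm, also overlapped, with estimates of −0.45 and 0.03. Lrpap1, a chaperone of LDL receptor family proteins, lay higher, at 12.15 and 12.21 in siSox17, against 10.91 and 11.04 in siNonTarget (1.21 ± 0.33). Of the markers of visceral endoderm, Afp was dim, at 4.04 and 4.04 in siSox17, against 4.08 and 4.32 in siNonTarget. Ttr, which encodes the carrier transthyretin, read 7.25 and 7.08 in siSox17, against 7.47 and 8.53 in siNonTarget (−0.84, and −0.31 without siNonTarget replicate 2).

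Of 18 definitive endoderm and primitive streak genes 8 lay above and 5 below both controls, with a median of 0.09 (0.01 to 0.16 with 1 of the 4 arrays left out). Foxa1 and Foxa3 of this list and Foxa2 of the extraembryonic list, the forkhead pioneer factors of endoderm, lay below. Foxa1 read 8.52 and 8.28 in siSox17, against 9.28 and 9.39 in siNonTarget (−0.93 ± 0.19). Foxa2 read 7.91 and 8.17 in siSox17, against 8.62 and 9.01 in siNonTarget (−0.78 ± 0.20), and it was about as low in siSocs3 (7.72 and 8.04) and siRnf31 (7.30 and 7.84). Foxa3 read 4.65 and 4.71 in siSox17, against 5.62 and 5.41 in siNonTarget (−0.83 ± 0.12, limma adjusted p = 0.112), the lowest of all 10 arrays. Foxa3 is dim, near or below the median probe set on every array. Its difference from siSocs3 passed the test (−0.86, limma adjusted p = 0.00783). Among the 8 above, Eomes, a T-box factor of the streak, read 7.81 and 7.77 in siSox17, against 6.70 and 6.93 in siNonTarget (0.97 ± 0.27). Nodal gave 0.50, and its co-receptor Tdgf1 gave 1.03. Estimates were also positive for Cxcr4 (0.59), Hhex (0.36) and Mixl1 (0.34), and negative for Cer1 (−0.13) and Lhx1 (−0.25). Endoderm genes of the list thus went both ways. The other genes below were the homeobox gene goosecoid (Gsc, −0.50), the growth factor gene Fgf8 (−0.28) and the VEGF receptor gene Kdr (−0.27). Gsc was also lower in siSox17 than in siSocs3 and passed (adjusted p = 0.00284), at 3.76 and 3.86 in siSox17 against 5.21 and 5.06 in siSocs3. These levels are all below the median probe set.

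Of 19 targets of Wnt and beta-catenin signalling, the pathway that with Nodal induces the streak and that SOX17 is known to restrain in other cells, 7 lay above and 4 below, with a median of 0.13 (0.11 to 0.24 with 1 of the 4 arrays left out). The caudal homeobox gene Cdx1 read 8.91 and 8.98 in siSox17, against 7.77 and 7.70 in siNonTarget (1.21 ± 0.29). Wnt8a (1.21, and 0.83 without siNonTarget replicate 1) and Cdx2 (1.33, and 0.88 without it) also lay above both controls. The other Cdx2 probe set gave 0.53. Of the feedback targets, Axin2 lay above (0.35, and 0.18 without siNonTarget replicate 1), Nkd1 lay below (−0.14), and Lgr5 overlapped (−0.45).

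The retinoic acid response and HOX list stood lowest of the 23 lists by its median with all 4 arrays; the list of 2-cell-stage genes was lower without siNonTarget replicate 1 (−0.71, against −0.60) and without siSox17 replicate 1 (−0.87, against −0.63). Of 30 genes, 21 (70.0%) lay below and 2 above both controls, with a median of −0.75, and 9 were at least 2-fold lower without overlap. The median ran from −0.90 to −0.60 over the fits that each leave out 1 of the 4 arrays. Ret, Nr2f1 and Crabp1 of this list are also among the 12 largest negative estimates of the same contrast. By array, the mean level of the list was 8.47 and 8.62 in siSox17, 7.98 and 8.16 in siSocs3, 9.32 and 8.65 in siFbxw7, 8.58 and 9.12 in siRnf31, and 9.50 and 9.14 in siNonTarget. The siSox17 arrays were below both controls, siSocs3 was lower still, and the siFbxw7 and siRnf31 replicates split.

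Rarb, the retinoic acid receptor gene that is itself induced by retinoic acid, read 9.25 and 9.20 in siSox17, against 9.87 and 10.08 in siNonTarget. The estimate was −0.75 ± 0.13 (limma adjusted p = 0.131). The other receptors of the list did not share it: Rara gave 0.04, Rarg 0.31 and Rxra 0.16. Cyp26a1, the main enzyme that breaks down retinoic acid, was among the brightest genes and read 12.71 and 12.62 in siSox17, against 13.26 and 12.87 in siNonTarget (−0.40 ± 0.14, and −0.21 without siNonTarget replicate 1). Its relative Cyp26b1 read 8.98 and 8.88 in siSox17, against 9.75 and 9.66 in siNonTarget (−0.78 ± 0.24).

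Rarb and Cyp26a1 are shown because their promoters were the only ones of the list that hold a retinoic acid response element as searched. The motif was a direct repeat of a pair of 6-base sites, each AGGTCA or AGTTCA or GGGTCA or GGTTCA, with a spacer of 5 bases (any letters), on either strand, within 250 bases before to 50 bases after the annotated start. It was found in 2 of the 22 list genes with a promoter in the RefSeq table (9.09%), against 31 of all 27025 genes (0.115%). The element is in capitals, both sites and spacer together, in the 250 bases before the start, from RefSeq on GRCm38.p6, at chr14:16575477-16575726 on the minus strand for Rarb and chr19:37697558-37697807 on the plus strand for Cyp26a1.
Rarb: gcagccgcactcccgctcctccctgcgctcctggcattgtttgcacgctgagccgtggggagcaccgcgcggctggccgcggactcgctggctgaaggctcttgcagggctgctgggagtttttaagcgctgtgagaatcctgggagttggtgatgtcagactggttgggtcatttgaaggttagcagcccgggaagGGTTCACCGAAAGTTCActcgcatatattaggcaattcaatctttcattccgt
Cyp26a1: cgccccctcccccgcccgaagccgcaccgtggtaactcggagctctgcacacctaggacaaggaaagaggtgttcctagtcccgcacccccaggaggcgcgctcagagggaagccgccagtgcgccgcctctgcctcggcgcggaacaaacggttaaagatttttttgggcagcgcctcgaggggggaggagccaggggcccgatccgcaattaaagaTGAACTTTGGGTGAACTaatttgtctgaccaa
The element starts 53 bases before the start in Rarb and 32 bases before it in Cyp26a1, where it reads on the opposite strand. A match describes these letters and is not a measured binding site. The core motif of SOX proteins, AACAAT on either strand, was in the promoters of 12.2% of genes (3299 of 27025). It was in 2 of the 22 genes of the retinoic acid list, Rara and Rarb (9.09%), and in 0 of the 10 largest positive and 0 of the 7 largest negative estimates that have a promoter in the table, which says only that these letters are not in those windows.

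HOX genes, which set position along the body axis, made up 12 of these 30 genes. Of the 12, 10 lay below both controls and 0 above, with estimates from −1.72 to 0.14. Hoxc4 read 8.04 and 8.40 in siSox17, against 10.18 and 9.69 in siNonTarget (−1.72 ± 0.45). Hoxb1, an early retinoic acid target of the hindbrain, read 10.47 and 10.68 in siSox17, against 11.59 and 11.18 in siNonTarget (−0.81 ± 0.25). Hoxa4 (−0.39) and Hoxa5 overlapped. Hoxa5 was at 11.33 and 11.46 in siSox17, against 11.45 and 11.06 in siNonTarget, and it was higher in siSox17 than in siSocs3 (adjusted p = 0.016). The cofactor genes Meis1 (−0.73) and Meis2 (−0.77) lay below both controls, as did the zinc finger gene Tshz1 (−1.18). Nr2f1 read 7.61 and 6.66 in siSox17, against 9.04 and 9.54 in siNonTarget, and its relative Nr2f2 gave −1.05.

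Neural progenitor genes were mixed, with 7 of 23 below and 2 above both controls and a median of −0.12. Irx3, a homeobox gene of the neural plate, read 8.46 and 8.34 in siSox17, against 10.14 and 10.19 in siNonTarget (−1.76 ± 0.39). Pax6 read 7.57 and 7.79 in siSox17, against 9.22 and 8.61 in siNonTarget (−1.23 ± 0.32), and the growth factor gene Ptn gave −1.64. Nestin (Nes) gave 0.18 and Sox1 overlapped, at 6.22 and 7.69 in siSox17, against 8.74 and 7.29 in siNonTarget. Of 28 neuronal and synaptic vesicle genes, the class to which Doc2a belongs by function, 10 lay above and 4 below, with a median of 0.05. Doc2b, the close relative of Doc2a, read 4.90 and 4.58 in siSox17, against 4.96 and 4.87 in siNonTarget, with overlap. Stmn2 (0.66), the growth-cone gene Gap43 (0.72) and the neurofilament gene Nefl (1.16) lay above both controls, and Map2 (−0.72) and Sv2a (−0.72) below. Gap43 passed against siSocs3 (adjusted p = 0.0071), at 10.12 and 10.69 in siSox17 and 8.45 and 8.72 in siSocs3. The 15 neural crest and enteric neuron genes gave 5 above and 5 below.

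Most genes of the naive pluripotent state lay above both controls. Of 18, 15 (83.3%) did so and 1 lay below, with a median of 0.55 that ran from 0.48 to 0.70 over the fits without 1 of the 4 arrays. Nanog, a core factor of the naive state, read 11.96 and 12.08 in siSox17, against 11.26 and 11.24 in siNonTarget (0.77 ± 0.22, limma adjusted p = 0.163). Esrrb, an orphan nuclear receptor, read 9.23 and 9.30 in siSox17, against 8.39 and 8.28 in siNonTarget (0.93 ± 0.23). Klf4, a zinc finger factor, read 10.34 and 10.61 in siSox17, against 9.37 and 9.16 in siNonTarget (1.21 ± 0.35). The groups did not overlap for these 3 genes, and siSocs3 stood higher still for all 3. It read 12.87 and 12.71 for Nanog, 9.98 and 9.85 for Esrrb, and 11.12 and 10.68 for Klf4. Fgf4 (1.10), Klf5 (0.96) and Tfcp2l1 (0.90) also lay above. Gbx2 was the 1 gene below both, at 8.26 and 8.75 in siSox17, against 10.13 and 9.02 in siNonTarget (−1.07 ± 0.42, and −0.52 without siNonTarget replicate 1). By array the mean level of the list was 9.64 and 9.82 in siSox17, 10.32 and 10.20 in siSocs3, 9.34 and 9.68 in siFbxw7, 9.63 and 9.19 in siRnf31, and 9.27 and 9.15 in siNonTarget. Against siSocs3, Prdm14 (adjusted p = 0.0238) and Fbxo15 (adjusted p = 0.00155) were lower in siSox17.

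Core and primed pluripotency genes were split, with 7 of 17 above and 5 below and a median of −0.03. Pou5f1, which encodes OCT4, read 12.27 and 12.59 in siSox17, against 11.84 and 11.10 in siNonTarget (0.96 ± 0.32). Sall4 (−0.35) and the RNA-binding Lin28a (−0.51) lay below both controls. Of 18 targets of LIF and STAT3 signalling, which maintains mouse embryonic stem cells, 10 (55.6%) lay above and 0 below, with a median of 0.37, which was 0.23 without siNonTarget replicate 1. Cebpd, a leucine zipper factor, read 7.83 and 7.83 in siSox17, against 7.08 and 7.19 in siNonTarget (0.69 ± 0.12, limma adjusted p = 0.131), and above every array of the other siRNAs. It passed against siSocs3 (limma adjusted p = 0.0229), while its other probe set gave 0.02 for siSox17 against siNonTarget. The immediate target Socs3 itself overlapped, at 10.09 and 9.88 in siSox17, against 9.62 and 10.28 in siNonTarget.

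All 26 measured p53 targets had estimates above 0, where 49.4% of all genes did. Of them 19 (73.1%) lay above both controls and 0 below, with a median of 0.40, which ran from 0.29 without siNonTarget replicate 1 to 0.59 without siNonTarget replicate 2. Mdm2, the ubiquitin ligase that limits p53, read 11.87 and 11.62 in siSox17, against 10.59 and 11.06 in siNonTarget (0.92 ± 0.24, limma adjusted p = 0.145). Cdkn1a, which encodes the cell cycle inhibitor p21, read 11.16 and 10.78 in siSox17, against 10.14 and 10.54 in siNonTarget (0.63 ± 0.18). Pmaip1, which encodes the cell death protein NOXA, read 9.79 and 9.70 in siSox17, against 8.55 and 8.64 in siNonTarget (1.15 ± 0.31). These groups did not overlap, and siNonTarget replicate 1 was the lowest of all arrays for Mdm2 and Pmaip1. Perp, a desmosomal protein, read 11.94 and 11.70 in siSox17, against 9.37 and 10.80 in siNonTarget (1.74 ± 0.54, and 1.02 without siNonTarget replicate 1). By array, the mean level of the list was 10.05 and 9.88 in siSox17, 9.58 and 9.63 in siSocs3, 9.50 and 9.77 in siFbxw7, 9.85 and 9.50 in siRnf31, and 9.31 and 9.55 in siNonTarget. The siSox17 arrays had the highest means of all 10. Cdkn1a passed against siSocs3 (adjusted p = 0.0438). The mitotic regulators, which p21 restrains, showed small estimates, from −0.41 to 0.23, with 4 of 21 above and 8 below.

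Of 23 NF-kB targets 14 (60.9%) lay above and 2 below both controls, with a median of 0.30. Icam1, an adhesion receptor, read 8.97 and 8.88 in siSox17, against 8.12 and 7.97 in siNonTarget (0.88 ± 0.22). Cyld, a deubiquitinase that damps NF-kB, read 9.25 and 8.99 in siSox17, against 8.52 and 8.35 in siNonTarget (0.69 ± 0.14, limma adjusted p = 0.136). Csf1 (1.48, and 0.83 without siNonTarget replicate 1) and Tnfaip3 (0.77, and 0.45 without it) lay above, while Il6 and Tnf were near background on every array. Interferon genes, which double-stranded RNA can induce, gave 8 of 22 above and 7 below with a median of −0.01, and Ifnb1 read 4.01 and 4.19 in siSox17, against 4.15 and 4.03 in siNonTarget. The small RNA silencing machinery, on which siRNA depends, gave 3 of 16 above and 5 below; Ago2 read 10.19 and 10.09 in siSox17, against 10.44 and 10.24 in siNonTarget.

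Both metabolic lists had medians below 0. Of 20 sterol synthesis genes 10 (50%) lay below and 1 above both controls, with a median of −0.20, which was −0.08 without siSox17 replicate 1. Tm7sf2, a sterol reductase, read 8.03 and 8.08 in siSox17, against 8.83 and 8.83 in siNonTarget (−0.78 ± 0.20). Ebp, a sterol isomerase, went the other way, with 0.39. Of 25 hypoxia and glycolysis genes 13 (52.0%) lay below and 4 above, with a median of −0.24, which was −0.14 without siNonTarget replicate 1 and −0.36 without siNonTarget replicate 2. Tpi1, triosephosphate isomerase, read 11.38 and 11.58 in siSox17, against 12.31 and 12.16 in siNonTarget (−0.75 ± 0.24), and Egln3, an oxygen-sensing hydroxylase, gave −1.12. Gapdh gave −0.05. The integrated stress response showed 2 of 22 above and 2 below; Atf3, a stress-induced leucine zipper factor, read 9.23 and 9.01 in siSox17, against 8.58 and 8.66 in siNonTarget (0.51 ± 0.13), and it passed against siSocs3 (adjusted p = 0.0211).

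**Figure D4:**
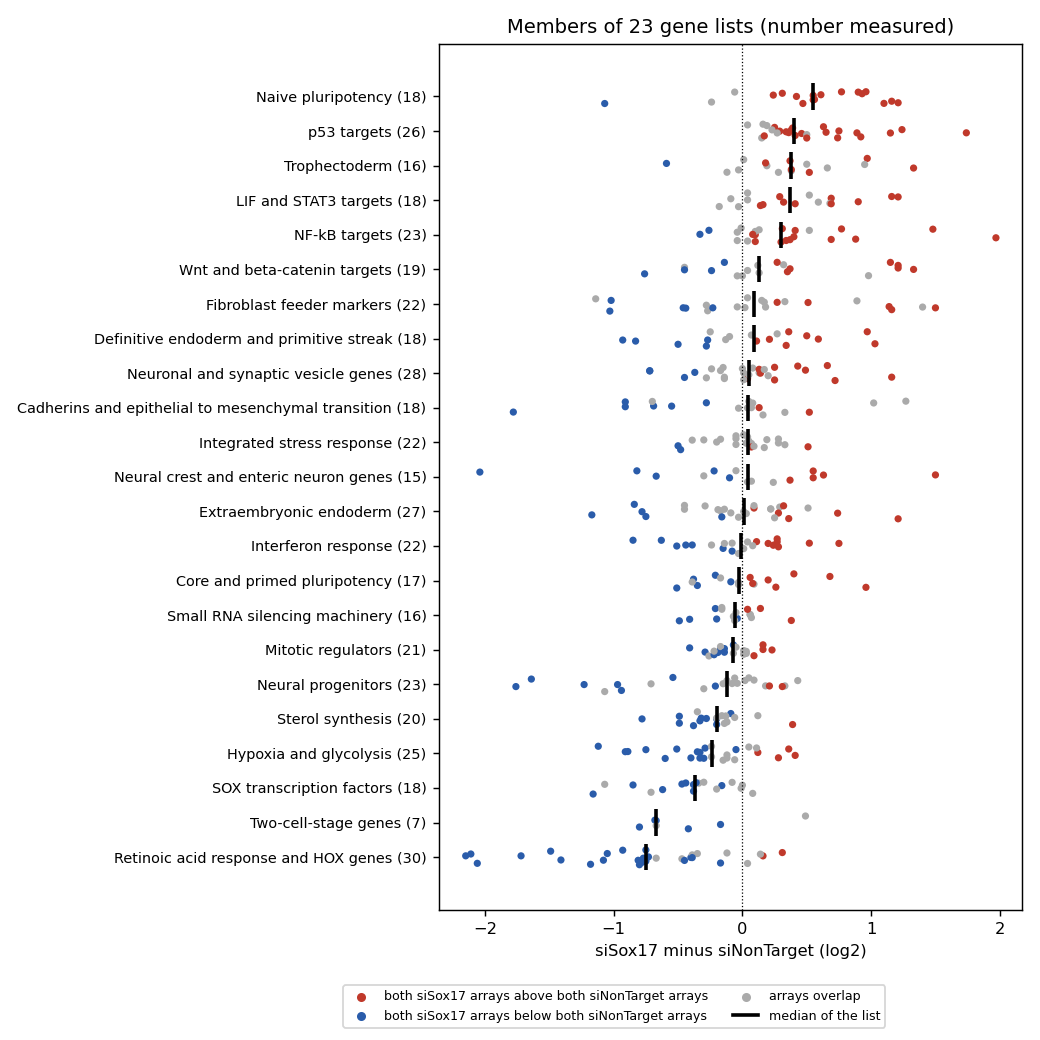
Each point is 1 gene of a list (rows, with the number measured, ordered by median) and the horizontal axis is its log2 difference between siSox17 and siNonTarget; black bars are medians, and colours mark genes whose groups do not overlap. The medians run from −0.75 (retinoic acid response and HOX genes) to 0.55 (naive pluripotency), and no point passed the adjusted threshold.

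Markers of other cells were checked because the cultures could hold them. Of 16 trophectoderm genes 6 lay above and 1 below both controls, but the median of 0.38 became −0.03 without siNonTarget replicate 1. The keratin gene Krt8 read 12.86 and 12.34 in siSox17, against 10.63 and 12.67 in siNonTarget. Of 22 fibroblast markers, for feeder cells, 5 lay above and 5 below. Smooth muscle actin (Acta2) read 11.23 and 9.09 in siSox17, against 7.16 and 11.39 in siNonTarget, and Col3a1 read 6.05 and 4.93 in siSox17, against 5.17 and 8.10 in siNonTarget. Both markers differed more between the siNonTarget replicates than between the groups. Other members depended less on 1 control, and they went both ways. Col1a2 gave −1.03 (−0.99 and −1.07 without siNonTarget replicate 1 or 2) and Mmp2 −1.02 (−0.86 and −1.17). Ccn2 gave 1.14 (1.03 and 1.24). The mean level of the fibroblast list was 7.79 and 7.47 in siSox17 and 7.18 and 7.82 in siNonTarget, and its part in other differences was not tested. Of 18 cadherin and epithelial to mesenchymal transition genes, 2 lay above and 6 below; Cdh6 gave −1.78 and the repressor gene Zeb1 −0.69, the last with 1 of its other probe sets at 0.34.

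The direct comparison with siSocs3, which has the same siSox17 arrays and no siNonTarget array, called 474 genes (2.61%), 176 (0.967%) higher and 298 (1.64%) lower in siSox17. The list with the largest median difference holds genes marking cells like the 2-cell embryo, and all 7 of them passed as lower in siSox17. Zfp352 read 7.09 and 6.67 in siSox17, 10.03 and 9.71 in siSocs3, and 7.17 and 7.94 in siNonTarget, with an adjusted p of 0.00202 against siSocs3. Against siNonTarget, 5 of the 7 lay below both controls and none passed, with a median of −0.67 that was −0.28 without siNonTarget replicate 2. No gene passed against siFbxw7 or siRnf31 by limma, where 1017 (5.59%) and 1397 (7.68%) had an unadjusted p under 0.05.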

How the data were processed

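Expression of 5 groups of 2 Affymetrix arrays was used. The authors deposited linear intensities; the submitters' processing notes name RMA, without a version. Per the labels' protocols, amplified and biotin-labelled cDNA was hybridised. They ran from 5.05 to 31606.3, with array medians of 46.39 to 47.95, and log2 was taken. RMA makes arrays alike, so these values hide any shift common to the bulk of genes. Of 45101 probe sets, 34958 had 1 gene symbol in the platform annotation, 932 had more than 1 (not used), and 9211 had no entry; gene IDs of 34754 matched the RefSeq table of GRCm38.p6. Each gene took its brightest probe set, by mean over the 10 arrays; dim genes were kept.

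One model over the 5 groups was fitted with limma 3.58.1 (R 4.3.3; functions lmFit, then eBayes), which left 5 residual degrees of freedom and added 3.98 from the prior, with two-sided tests and Benjamini-Hochberg adjustment over 18194 genes; p-values in the text are from limma. The fit was tested on simulated data with independent errors. Those data lack the likeness between arrays of different groups seen here, so the test does not cover it. Named genes are Sox17, the genes past the threshold, the 12 largest estimates and the 8 smallest p in each direction, and up to 3 members of each list; further list members were chosen after their values were seen. The 23 gene lists (470 of 508 entries on the array) and the comparison itself were chosen with earlier results of these data known. Promoters were searched in RefSeq windows of 300 bases. The main fit did not pair arrays by replicate number. Deviations of same-numbered arrays correlated at −0.22 between siSox17 and siNonTarget, and between −0.26 and 0.42 over all pairs of groups. The 0.42 was between siNonTarget and siFbxw7. These values do not decide whether same-numbered arrays share a day or batch. Alternatives were a replicate block, fewer groups, quantile normalization, median centring, filters on dim genes, another prior, other probe set rules, a threshold of 2-fold, and fits that each dropped 1 array. Figures were drawn with matplotlib 3.10.9.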

Additional observations from a re-analysis of the deposited data

How the results depend on the processing

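The count of genes that passed between siSox17 and siNonTarget, 1 with all 5 groups, was 254 with only the groups compared, 584 when siFbxw7 and siRnf31 were both left out, and 16 without siNonTarget replicate 1 and siFbxw7 replicate 1, the arrays of high actin difference; Doc2a was not among the 16. It was 3 when the probe sets of a gene were averaged (Doc2a, Msln and Myzap), and 0 with every probe set tested alone, without the dimmest 50% of genes, or with a trended and robust prior. Leaving out 1 array gave 0 to 234 genes; the 234 came without either siFbxw7 array, and the 0 without siNonTarget replicate 2 or any 1 siSox17 or siSocs3 array. Against siSocs3 the count of 474 was 881 with only those groups, 740 without both high-actin arrays, 175 at a 2-fold minimum, and 77 to 521 with 1 array left out (77 without siSocs3 replicate 1, 227 without siSocs3 replicate 2, 140 without siSox17 replicate 1 and 104 without siSox17 replicate 2). Against siRnf31, leaving out 1 array gave 0 to 2 genes, the 2 without either siNonTarget array. Each such fit has fewer arrays, and dropping 1 array of a group takes that group's replicate spread out of the error; other causes were not tested.

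Of 104 named genes, 103 kept their direction in every setting run, and Sox17 did not. For each of the 103, both siSox17 arrays lay on the same side of both siNonTarget arrays. Leaving out an array therefore could not reverse them, and the count is no measure of robustness. The Sox17 difference of 0.03 was −0.48 without siNonTarget replicate 1, with or without siFbxw7 replicate 1. It ran from −0.56 to 0.62 with 1 array left out. The fit with a replicate block called 0 genes, and Doc2a lost its call there; with the siSox17 numbers crossed, chosen after seeing the data, the block also called 0. The check of deviations does not decide whether the numbers pair the arrays. Precision is limited by there being 2 arrays in a group.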
